A study of Mus musculus with 44 samples.

Results

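Lungs of wild-type mice that carried an intratracheal tumour and received vehicle were compared with tumour-free wild-type lungs, across all genes of a table of normalized counts. The members were chosen by their labels: 5 libraries of wild-type lungs labelled as HBSS tumour controls (called tumour lungs here) and 5 libraries of wild-type lungs labelled tumour-free, which makes 10 of the 44 samples in the series. The series tested how a mutant Timp2 gene and daily recombinant TIMP2 protein bear on lung tumours, in an intratracheal model (30 libraries) and a subcutaneous model (14 libraries). Both groups were of strain C57BL6j and genotype wt, and neither received TIMP2. The tumour lungs had been given LL/2-Luc2 cells, Lewis lung carcinoma cells with a luciferase reporter, by instillation into the trachea in PBS, and the mice then received HBSS, a salt solution that serves as the vehicle. For the tumour-free lungs the labels repeat the cell line name, but the reporter transcript was listed at 0 in each of them. Ages, sex and the day of collection were not given in the sources used here. Each library was made from polyA-selected RNA of a piece of lung of about 3 mm3, so a tumour library holds RNA of the injected cells, of cells that entered with or around them, and of the lung that was left. In such bulk tissue, fewer cells of a type and less RNA per cell cannot be told apart.

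The lung's gas-exchange surface is built from thin alveolar type 1 cells, surfactant-making alveolar type 2 cells, a dense capillary bed and supporting fibroblasts, while club and ciliated cells line the airways. Lewis lung carcinoma is a transplantable line from a lung tumour of a C57BL mouse, and it grows as a poorly differentiated, fast-dividing mass that recruits macrophages and fibroblasts. Solid tumours in general rely on high rates of glycolysis and biosynthesis, and they remodel the matrix and vessels around them.

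The sequencing depth, estimated from the step between low values, was 10.68 M to 13.61 M reads in the tumour lungs and 13.17 M to 14.09 M in the tumour-free lungs, with 75.9% to 81.2% of low values within 0.02 of a whole multiple of the step. The luciferase transcript Luc2 was listed at 55.6, 49.2, 42.4, 69.2 and 39.3 normalized counts in tumour lungs 1 to 5 and at 0 in all 5 tumour-free lungs, a difference in means of 51.1 (two-sided exact permutation test, p = 0.0079, the smallest that 5 against 5 allows). Timp2, intact by label in both groups, averaged 6900.1 ± 838 in the tumour lungs and 10619 ± 519 in tumour-free lungs (SD, n = 5 each, as for all means here; log2 difference -0.63, limma adjusted p = 0.00036). Mitochondrial transcripts took 2.04% to 3.39% of the tumour lungs' counts and 1.80% to 2.06% of the tumour-free lungs'. The Y-linked gene Ddx3y averaged 392 ± 178 in tumour lungs, against 3.50 ± 2.32 in tumour-free lungs. Xist, the X-inactivation transcript, overlapped between the groups at 2399 to 6691 in tumour lungs, against 4118 to 5057 in tumour-free lungs. The sexes of mice and cells were not given, and whether Ddx3y came from the mice or the injected cells was not tested. A difference in the sex of the mice therefore cannot be told apart from the tumour. The tumour lungs differed from each other more than the tumour-free lungs did: over all tested genes the median SD was 0.38 in the tumour lungs and 0.154 in the tumour-free lungs on the log2 scale. Tumour lung 1 stood apart and lay nearest to the tumour-free lungs, and tumour lungs 1 and 4 held more skeletal muscle and basal keratin transcript than the others, as described further on. The sample numbers in the labels run from 1 to 5 for the tumour lungs and from 331 to 353 for the tumour-free lungs, so any difference in cohort or handling cannot be told apart from the tumour. Of these 2 groups, only the tumour lungs have an instilled volume and HBSS on record. Any part of the instillation or the vehicle cannot be told apart from the tumour either. The labels do not say whether the libraries of a group came from separate mice, and p-values measure the spread between these samples.

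Of 16967 genes tested, 11962 changed at an adjusted p under 0.05 (70.5% of the tested genes), 5571 of them higher (32.8%) and 6391 lower (37.7%) in the tumour lungs. Differences are given as log2(value + 1) of tumour minus tumour-free lungs, with the standard error from limma, and adjusted p is Benjamini-Hochberg's over all tested genes. A difference of more than 2-fold, tested as such with limma's treat, was called for 1445 higher genes (8.52%) and 2332 lower genes (13.7%). For 9688 genes (57.1%) the 5 tumour lungs and the 5 tumour-free lungs did not overlap. These shares are the background against which every count of a gene list below has to be read. The median log2 difference of all tested genes was -0.07; rescaling the libraries to the same total put it at 0.01 and quantile normalization at 0.07, and changes are reported relative to values as deposited.

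The most abundant transcripts of the lung changed places. The 10 highest means in the tumour-free lungs were led by Scgb1a1 of club cells and Sftpc of alveolar type 2 cells, and in the tumour lungs by Eef1a1, a translation elongation factor, and the mitochondrial mt-Co1. Eef1a1 measured 91066, 211527, 160140.0, 105841 and 139518 in tumour lungs 1 to 5, against 58290.1, 59069.7, 55749, 63155 and 59681 in tumour-free lungs 1 to 5 (log2 difference 1.20 ± 0.214, adjusted p = 0.00048). Sftpc, the surfactant protein C gene, measured 83334, 35878, 29539, 34905 and 16354 in the tumour lungs, against 189395, 183231, 169504, 215943 and 174934 in tumour-free lungs (-2.42 ± 0.341, adjusted p = 0.0001). Every tumour lung was above every tumour-free lung for Eef1a1 and below every one for Sftpc. The fibrillar collagen gene Col3a1, the chaperone gene Hsp90ab1, the actin gene Actb, the mitochondrial mt-Cytb and the translation factor gene Eef2 stood among the 10 highest means of the tumour lungs and not of the tumour-free lungs. Sftpb, Sftpa1, Cbr2, Gsn and the haemoglobin gene Hbb-bs stood among them in the tumour-free lungs and not in the tumour lungs. Gsn, which encodes the actin-severing protein gelsolin, averaged 7764 ± 5436 in the tumour lungs and 51065 ± 1465 in tumour-free lungs (SD, n = 5 each; -2.95, adjusted p = 3.4e-05).

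The largest rises, among called genes with no overlap between the groups and a mean of at least 200 normalized counts in the tumour lungs, were of transcripts that were close to absent from the tumour-free lung. Dlx1, a homeobox factor of forebrain interneurons, measured 102, 245, 329, 223 and 446 in tumour lungs 1 to 5, against 2.89, 0, 1.92, 0.975 and 2.04 in tumour-free lungs 1 to 5 (log2 difference 6.71 ± 0.457, adjusted p = 1.0e-06). Zic2, a zinc finger factor of the neural plate, measured 109, 219.7, 175, 211 and 312 in the tumour lungs, against 0.963, 0, 1.92, 3.90 and 0 in tumour-free lungs (6.64 ± 0.475). Both were lowest in tumour lung 1. Because the tumour-free values are a few reads at most, these log2 differences depend on the pseudocount, and with a pseudocount of 10 the value for Dlx1 was 4.46.

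Ptn, Dkk2 and Bcat1 were also among the largest rises. Ptn, which encodes the growth factor pleiotrophin, measured 1334, 4554, 5190.4, 2769 and 5696 in tumour lungs 1 to 5, against 52.97, 27.1, 32.6, 40.9 and 32.6 in tumour-free lungs 1 to 5 (6.54 ± 0.369, adjusted p = 5.3e-07). Dkk2, a secreted Wnt modulator that the artery list also holds, measured 2103, 4051, 4585, 5962 and 6304 in the tumour lungs, against 57.8, 32, 48.8, 31.2 and 26.5 in tumour-free lungs (6.80 ± 0.310, adjusted p = 1.9e-07). Bcat1, the cytosolic enzyme that transaminates branched-chain amino acids, measured 418, 637, 484, 601 and 523 in the tumour lungs, against 6.74, 3.88, 6.70, 2.92 and 4.07 in tumour-free lungs (6.54 ± 0.241, adjusted p = 6.4e-08). Bcat1 varied little among the tumour lungs, while Ptn was much lower in tumour lung 1 than in the other 4. The list of tumour cell and oncofetal transcripts, drawn up with earlier results of these samples known, had 13 of its 16 tested members higher and 1 lower (2 lower without tumour lung 1 or 4), with a median log2 difference of 4.10. H19, an imprinted RNA of fetal tissue that is named after its values were seen, was highest in tumour lung 1 and rose by 5.89 to 2374 ± 2049.6 in the tumour lungs, against 31.2 ± 6.41 in tumour-free lungs. Its imprinted neighbour Igf2, a fetal growth factor gene, was the member that fell (-2.09, adjusted p = 0.00023), at 48.9 ± 30.4 in tumour lungs, against 187 ± 21.4 in tumour-free lungs. Rhox2d, Rhox2g, Rhox2h and Xlr3c, X-linked genes of multi-copy families, rose by 7.09, 6.93, 6.85 and 7.09, but reads may be split between near-identical copies, so the single values are uncertain. Exosc6 also appeared among the rises, at 47.05 to 400.0 in the tumour lungs and almost 0 in the tumour-free lungs, yet it lies on chromosome 8 inside the last part of Aars on the same strand (GENCODE annotation of GRCm38), whose own values were 2195 to 2805 in tumour lungs, against 1329 to 1490.3 in tumour-free lungs, so its reads are shared and no fold is given.

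Genes with the largest falls belonged to several resident cell types. They were taken from called genes with no overlap between the groups and a mean of at least 200 normalized counts in the tumour-free lungs. Lrat, which esterifies retinol for storage, measured 233, 49.2, 40.02, 23.1 and 11.1 in tumour lungs 1 to 5, against 793, 3021, 1658, 349 and 1576 in tumour-free lungs 1 to 5 (log2 difference -4.78 ± 0.767, adjusted p = 0.00026). Bmp6, a bone morphogenetic protein gene, measured 1101, 184, 99.5, 234 and 43.4 in the tumour lungs, against 3532, 5155, 4892, 3202 and 3978 in tumour-free lungs (-4.47 ± 0.672, adjusted p = 0.00017). Cyp2f2, a cytochrome P450 of club cells, measured 12121, 1680.2, 424, 2587 and 281 in the tumour lungs, against 27266, 34985, 31177, 26473 and 31746 in tumour-free lungs (-4.38 ± 0.840, adjusted p = 0.00081). In all 3, tumour lung 1 was the highest and tumour lung 5 the lowest of the tumour lungs. Glp1r, the receptor of glucagon-like peptide 1, fell by 4.36 to 169 ± 173 in tumour lungs, against 2438 ± 215 in tumour-free lungs, and Adcy8, an adenylyl cyclase gene, fell by 4.59. Pcdhac2 (-4.74), a clustered protocadherin gene, and Krt79 (-4.40), a keratin gene that mouse alveolar macrophages express, fell to a like degree.

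**Figure D1:**
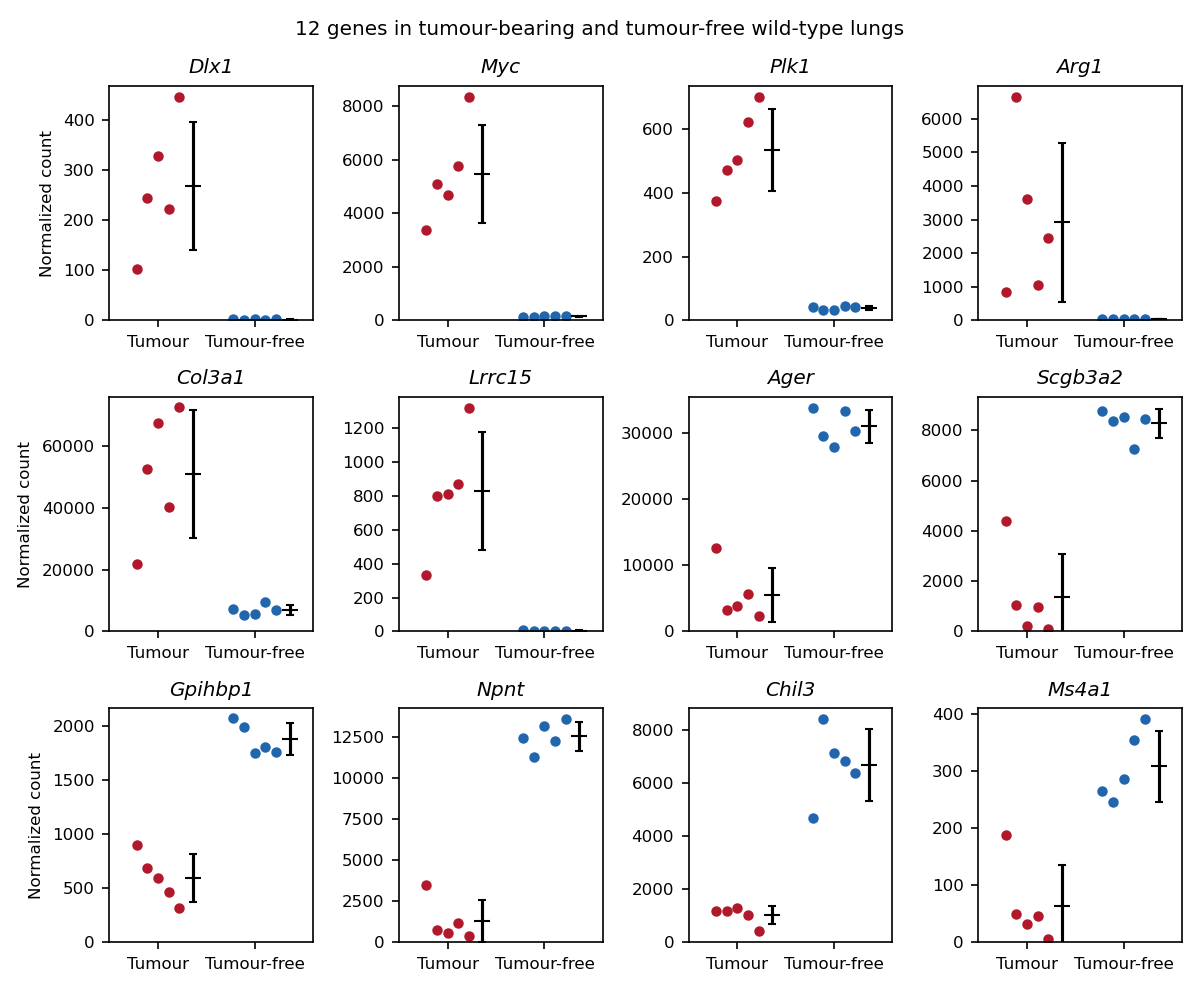
Normalized counts (vertical axes, from 0) of 12 genes in each of the 5 tumour lungs (left of each panel, replicates 1 to 5 from left to right) and 5 tumour-free lungs (right), with the mean and SD in black (a bar that would pass 0 ends at the axis). Dlx1, Myc, Plk1, Arg1, Col3a1 and Lrrc15 were higher in all 5 tumour lungs, and Ager, Scgb3a2, Gpihbp1, Npnt, Chil3 and Ms4a1 were lower in all 5.

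Transcripts of every epithelial cell type of the lung with 5 or more tested markers fell. For alveolar type 1 cells all 12 markers fell, with a median log2 difference of -2.63, and for alveolar type 2 cells all 12 fell, with a median of -2.61 (background 37.7% lower, median -0.07). Ager, the receptor that marks alveolar type 1 cells, measured 12531, 3299, 3846, 5607 and 2357 in tumour lungs 1 to 5, against 33801, 29602, 27897, 33312 and 30268 in tumour-free lungs 1 to 5 (-2.74 ± 0.366, adjusted p = 8.2e-05). Akap5, a kinase anchor that type 1 cells express, fell furthest of that list (-3.82 ± 0.385). The complement gene Hc, made by type 2 cells, measured 2114, 511, 634, 1328 and 292 in the tumour lungs, against 6073, 7219.8, 8306, 6825 and 7216 in tumour-free lungs (-3.21 ± 0.444, adjusted p = 0.0001). In each of these the tumour lungs lay below all tumour-free lungs, and the summed type 1 markers ran from 14703 to 57452 in the tumour lungs and from 130588 to 137466 in the tumour-free lungs.

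The airway epithelium fell too, and unevenly between the tumour lungs. All 12 ciliated markers fell (median -2.97), as did 11 of 12 club and airway secretory markers (median -3.44), all but Bpifa1. Scgb3a2, a secretoglobin of small airways, measured 4374, 1064, 227, 984 and 104 in tumour lungs 1 to 5, against 8753, 8379, 8545, 7258 and 8436 in tumour-free lungs 1 to 5 (-3.68 ± 0.811, adjusted p = 0.0019), with tumour lung 1 far above tumour lung 5. Foxj1, the master regulator of motile cilia, measured 1366, 262, 121, 373 and 41.4 in the tumour lungs, against 1455, 1689, 1769, 1246 and 1608 in tumour-free lungs (-2.72 ± 0.724, adjusted p = 0.006). Tumour lung 1 lay within the tumour-free range for Foxj1, and the other 4 were below it. The ciliary dynein gene Dnah5 fell by 4.20 to 68.1 ± 93.4 in tumour lungs, against 713 ± 202 in tumour-free lungs. Summed club and secretory markers ran from 7596 to 210773 in the tumour lungs and from 401684 to 462123 in the tumour-free lungs.

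Genes for functions of the epithelium fell as well. Of 14 tested genes of ion and water transport 13 fell and none rose (median -2.34). Cftr, the chloride channel gene, measured 45.7, 6.56, 3.64, 16.8 and 0 in the tumour lungs, against 142, 179, 152, 145 and 143 in tumour-free lungs (-4.29 ± 0.821, adjusted p = 0.0008), and Scnn1b, a subunit of the epithelial sodium channel, fell by 3.09. Of 16 genes of xenobiotic metabolism 14 fell (median -2.89), led by Fmo1 (-4.09), a flavin monooxygenase gene, and Aox3 (-4.02), an aldehyde oxidase gene. Of 19 epithelial junction and keratin genes 17 fell (median -2.48), including Cdh1, the E-cadherin gene, at 862 ± 788 in tumour lungs, against 4844 ± 282 in tumour-free lungs (-2.91, adjusted p = 0.00025). The exception was Krt18, a keratin of simple epithelium, with 1961, 1532, 1857, 2827 and 2053 in the tumour lungs and 1671, 1574, 1369, 1741 and 1409.9 in tumour-free lungs; it was called higher (0.37, adjusted p = 0.042), but the groups overlapped and 10 alternatives lost the call, with adjusted p up to 0.11.

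Lung lineage transcription factors fell almost without exception. Of 19 tested 18 were lower and 1 higher, with a median of -2.66. Foxa1, a pioneer factor of endoderm, fell by 3.16, Sox2, of the proximal airway, fell by 3.12, and the lung mesenchyme factor Tbx4 fell by 3.05. Sox9, a factor of the distal tip progenitors of the embryonic lung and of cartilage, was the exception, with 264, 486, 777, 452 and 902 in tumour lungs 1 to 5, against 21.2, 14.5, 17.2, 15.6 and 12.2 in tumour-free lungs 1 to 5 (4.96 ± 0.312, adjusted p = 7.1e-07). Every tumour lung was far above every tumour-free lung for Sox9, with lung 1 lowest and lung 5 highest.

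Vessel transcripts fell as a group. All 13 general endothelial markers fell (median -2.86), as did all 9 of general capillaries (median -3.08), all 6 of lymphatics (median -2.68) and 7 of 8 of aerocytes, the capillary cells specialised for gas exchange (median -3.08). Calcrl, the receptor of adrenomedullin, measured 4556, 2065, 618, 1344 and 633 in tumour lungs 1 to 5, against 12143, 12701, 14724, 13184 and 13121 in tumour-free lungs 1 to 5 (-3.25 ± 0.474, adjusted p = 0.00014). Car4, a carbonic anhydrase of aerocytes, measured 698, 159.6, 57, 236 and 23.2 in the tumour lungs, against 2175, 1831, 2003, 2050.3 and 2199 in tumour-free lungs (-3.98 ± 0.723, adjusted p = 0.00057). Gpihbp1, which holds lipoprotein lipase on capillary walls, fell less (-1.74 ± 0.231), at 594 ± 221 in tumour lungs, against 1881 ± 150.2 in tumour-free lungs. Of 8 arterial markers 7 fell (median -2.57), with Gja5 at -2.79, and the 1 that rose was Dkk2. Of 6 venous markers 4 fell (median -1.33), with Vwf, the von Willebrand factor gene, at -2.72, while Bst1, an ectoenzyme gene, did not pass the test, at 367 ± 85.05 in tumour lungs, against 325 ± 35.1 in tumour-free lungs (0.14, adjusted p = 0.48).

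Among 24 angiogenic ligands and receptors 17 fell and 3 rose (median -2.17). The receptors Kdr (-3.96) and Tek (-3.98) fell the most. Vegfa, the main ligand of Kdr, measured 5484, 1685, 1689, 2170.2 and 1765 in tumour lungs 1 to 5, against 12197, 10337, 10879, 10738 and 11308 in tumour-free lungs 1 to 5 (-2.29 ± 0.291, adjusted p = 5.9e-05); tumour lungs 2 to 5 were close together and tumour lung 1 was higher, all below the tumour-free lungs. Other ligands of the family moved the other way: Pgf, placental growth factor, rose by 1.08 (adjusted p = 0.01) with overlapping groups, and Vegfb rose by 0.87. Vegfd, a ligand of lymphatic vessels that the alveolar fibroblast list holds too, did not pass the test, and measured 613, 726, 811, 911 and 981 in tumour lungs, against 669, 587, 711, 658 and 651 in tumour-free lungs (adjusted p = 0.063).

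The mesenchyme split. Of 11 alveolar fibroblast markers 10 fell (median -3.62), the lowest median of any list with 5 or more tested members. Npnt, a matrix ligand of integrin alpha 8, measured 3517, 777, 583, 1183 and 365 in tumour lungs 1 to 5, against 12479, 11274, 13168, 12268 and 13608 in tumour-free lungs 1 to 5 (-3.75 ± 0.482, adjusted p = 6.5e-05). Its receptor gene Itga8 fell by 3.99, and Tcf21, a transcription factor of lipofibroblasts, fell by 3.62. Adventitial fibroblast markers divided 5 and 5 of 10. Serpinf1, which encodes pigment epithelium-derived factor, measured 1543, 3746, 4399.7, 3619 and 5524 in the tumour lungs, against 436, 367, 342, 457 and 389 in tumour-free lungs (3.13 ± 0.283, adjusted p = 7.3e-06). The small proteoglycan gene Dcn rose by 2.26 and the insulin-like growth factor binding protein gene Igfbp4 by 2.04, while Pi16, the marker of universal fibroblasts, fell by 1.69. Pericyte markers fell in 8 of 9 cases (median -1.68), with Notch3 at -3.01. The exception was Rgs5, a regulator of G-protein signalling, at 339, 258, 304, 225 and 500.3 in the tumour lungs, against 112, 133, 166, 136 and 152 in tumour-free lungs (1.17 ± 0.206, adjusted p = 0.00043). Smooth muscle markers fell in 8 of 9 (median -2.42), and Cnn1, calponin, spanned 8.07 to 748 in the tumour lungs and 752 to 914 in the tumour-free lungs.

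Genes tied to tumour stroma did not move as a block. Of 15 tested, 10 rose and 5 fell (median 2.06). Thbs2, a matricellular protein gene, measured 2218, 3886, 4103, 3691 and 5754 in tumour lungs 1 to 5, against 77.05, 63.03, 87.1, 61.4 and 51.9 in tumour-free lungs 1 to 5 (5.79 ± 0.228, adjusted p = 8.4e-08). Grem1, an inhibitor of bone morphogenetic proteins, measured 543, 221, 269, 376 and 276 in the tumour lungs, against 9.63, 6.79, 18.2, 9.75 and 8.14 in tumour-free lungs (4.88 ± 0.305, adjusted p = 7.0e-07). Against these, Postn, which encodes the matrix protein periostin, measured 1496, 285, 401, 692 and 314 in the tumour lungs, against 4324, 3664, 3711, 3999 and 4407 in tumour-free lungs (-2.95 ± 0.388, adjusted p = 7.4e-05). Cthrc1, a collagen triple helix repeat gene that marks activated fibroblasts of fibrotic lung, fell by 2.64. Among the tumour lungs, Grem1 was highest in lung 1 and Thbs2 lowest in lung 1, and neither overlapped with the tumour-free lungs.

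Among 17 collagen genes 6 rose and 10 fell (median -0.84). Col3a1 measured 21783, 52549.6, 67552, 40074 and 72436 in tumour lungs 1 to 5, against 7173, 5206, 5576, 9439 and 7065 in tumour-free lungs 1 to 5 (2.80 ± 0.310, adjusted p = 2.3e-05). Col18a1, the source of endostatin, rose by 2.88. The chains of the mature alveolar basement membrane fell: Col4a3 measured 725, 182, 155, 313 and 221 in the tumour lungs, against 2619, 2988, 3178, 2472 and 2799 in tumour-free lungs (-3.37 ± 0.349), and its partner Col4a4 fell by 2.96. Of 20 basement membrane and elastic fibre genes 12 fell and 4 rose (median -1.57). Lama3, a laminin chain of epithelial basement membrane, fell by 3.91, whereas the linker Nid1 rose by 1.28 and the proteoglycan gene Hspg2, perlecan, by 1.00. Serpinh1, the collagen-specific chaperone of the endoplasmic reticulum, rose in all 5 tumour lungs, and is given with the genotypes at the end.

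Proteases of the matrix were also divided, with 8 of 21 metalloproteinase and inhibitor genes higher and 11 lower (median -0.54; background 32.8% higher, 37.7% lower). Mmp12, macrophage elastase, measured 465, 412, 579.7, 356 and 734 in tumour lungs 1 to 5, against 60.7, 45.6, 102, 64.3 and 52.9 in tumour-free lungs 1 to 5 (2.96 ± 0.247, adjusted p = 3.6e-06). In the plasminogen and coagulation list 10 of 18 rose and 4 fell (median 0.46). Plau, urokinase, measured 956, 1782, 1740.2, 1369.6 and 1765 in the tumour lungs, against 224, 208, 279, 272 and 283 in tumour-free lungs (2.56 ± 0.179, adjusted p = 1.2e-06). Its inhibitor gene Serpinb2 rose on average (3.70 ± 0.809) but ranged over 120.5, 585, 60.6, 23.1 and 20.2 in tumour lungs 1 to 5. Thbd, thrombomodulin, an anticoagulant protein of endothelium, fell by 3.53.

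**Figure D2:**
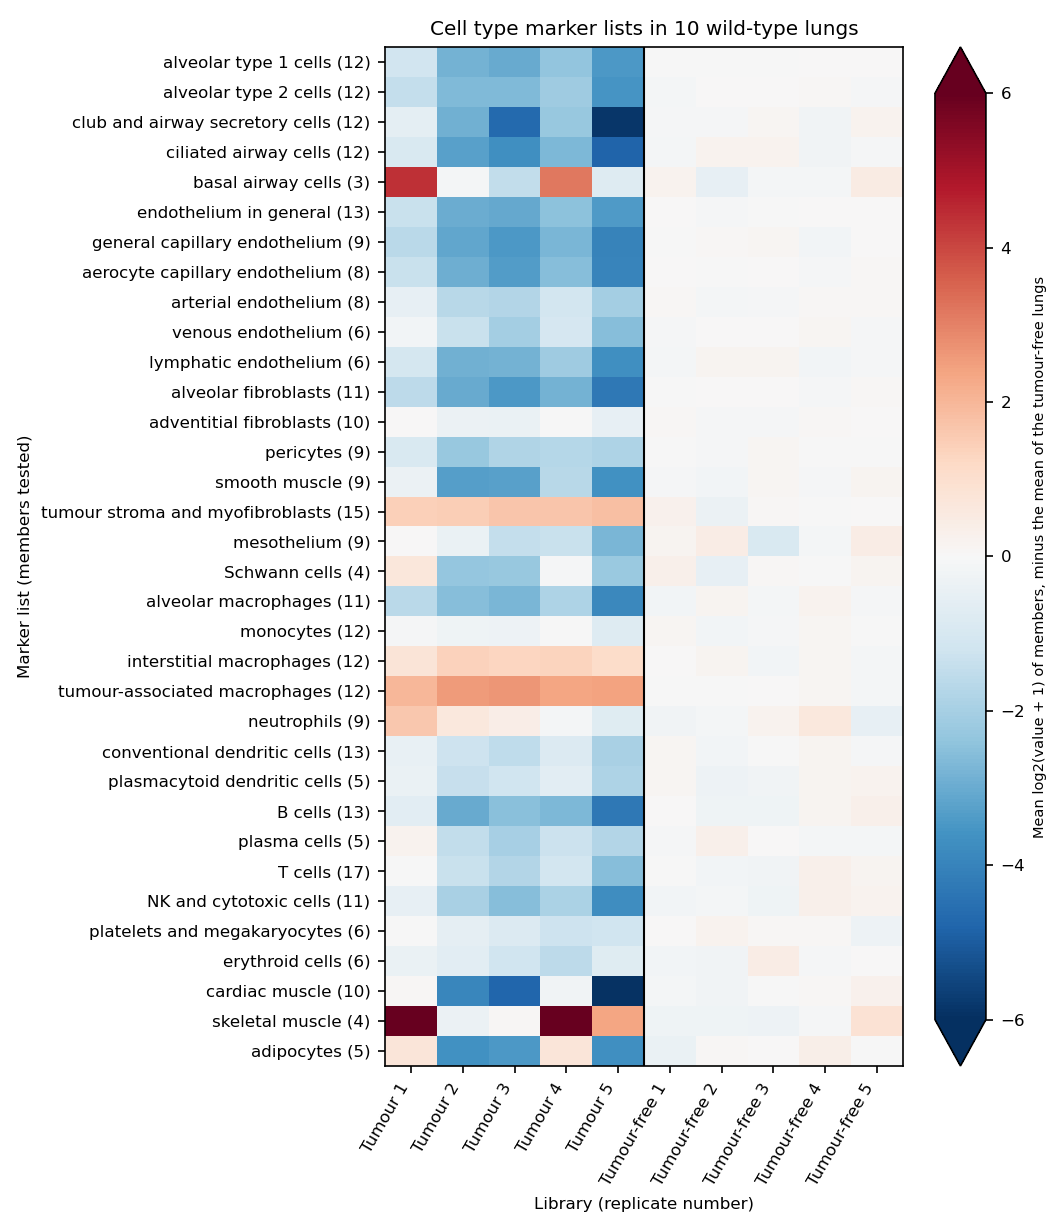
Mean log2(value + 1) over all members of each cell type list that the table holds (rows, with the number of tested members) in each library (columns, tumour lungs left and tumour-free lungs right), minus the mean of the 5 tumour-free lungs; red is higher, blue is lower, and the colours end at 6 in each direction. Lists of alveolar, club and ciliated epithelium, vessels, alveolar fibroblasts, alveolar macrophages and B, T and NK cells are lowered in the tumour lungs and least so in tumour lung 1, where T cells are almost white. The lists of interstitial and tumour-associated macrophages and of tumour stroma are red, and skeletal muscle and basal airway cells stand out in red in tumour lungs 1 and 4.

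The myeloid compartment changed its composition of markers. Of 11 alveolar macrophage genes 10 fell and none rose (median -2.78). Chil3, a chitinase-like protein of alveolar macrophages, measured 1198, 1193, 1309.7, 1041 and 424 in tumour lungs 1 to 5, against 4701, 8446, 7154, 6856 and 6406 in tumour-free lungs 1 to 5 (-2.77 ± 0.292, adjusted p = 1.8e-05), and the lectin gene Siglecf fell by 4.10. Of 12 genes of tumour-associated macrophages 10 rose and 1 fell (median 3.00). Arg1, arginase, measured 851, 6639, 3596, 1047 and 2464 in the tumour lungs, against 46.2, 50.4, 53.6, 53.6 and 54.97 in tumour-free lungs (5.39 ± 0.481, adjusted p = 6.8e-06). Arg1 was uneven, highest in tumour lung 2 and lowest in tumour lung 1. Hmox1, haem oxygenase, rose by 3.28, and the C-type lectin gene Clec4d rose by 3.54. The member that fell was Cd274, which encodes the checkpoint ligand PD-L1, at 269, 198, 190.3, 208 and 162 in the tumour lungs, against 343, 363, 425, 370.1 and 347 in tumour-free lungs (-0.86 ± 0.138, adjusted p = 0.00024).

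Interstitial macrophage genes rose in 7 of 12 cases and fell in 1 (median 1.27). C1qb, a chain of complement C1q, measured 1809, 4152, 3191, 3033 and 2811 in tumour lungs 1 to 5, against 419.9, 540.1, 372, 462 and 391 in tumour-free lungs 1 to 5 (2.74 ± 0.194, adjusted p = 1.3e-06). Csf1r, the receptor for macrophage colony-stimulating factor, was the 1 that fell, at 1309.6 ± 173 in tumour lungs, against 1792 ± 83.5 in tumour-free lungs (-0.46, adjusted p = 0.0015), while its ligand Csf1 rose by 1.28. Monocyte genes were split, with 4 of 12 higher and 6 lower (median -0.60; background 32.8% higher, 37.7% lower). Vcan, the proteoglycan versican, which fibroblasts and tumour cells also make, measured 1697, 3743, 5013, 3225 and 7251 in the tumour lungs, against 158, 75.6, 137, 112 and 127 in tumour-free lungs (4.97 ± 0.343, adjusted p = 1.3e-06). F13a1, a coagulation factor chain of monocytes and macrophages, rose by 1.77, and Fcgr1, the high-affinity receptor for IgG, rose by 2.25. The patrolling-monocyte factor Nr4a1 fell by 2.46, and Ace, which lung endothelium also makes in quantity, fell by 3.04. Ccr2, the receptor of classical monocytes, measured 514 ± 200.1 in tumour lungs, against 579.8 ± 92.8 in tumour-free lungs (adjusted p = 0.38). Few neutrophil genes passed the test: of 9, 2 rose and 1 fell, and S100a8, an alarmin subunit, measured 999, 824, 981, 262 and 252 in the tumour lungs and 273, 250.2, 405, 698 and 149.6 in tumour-free lungs (adjusted p = 0.16).

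Lymphocyte and dendritic markers were lower. Of 13 B cell genes 12 fell (median -2.67), of 17 T cell genes 14 fell (median -1.5), and of 11 genes of NK and cytotoxic cells 11 fell (median -1.99), with none higher in any of the 3. Ms4a1, which encodes the B cell surface protein CD20, measured 187, 49.2, 32.7, 47.2 and 6.05 in tumour lungs 1 to 5, against 265, 245, 286, 354 and 391 in tumour-free lungs 1 to 5 (-2.91 ± 0.671, adjusted p = 0.0026). Cd3e, a chain of the T cell receptor complex, measured 60.99, 28.4, 20.6, 34.6 and 9.08 in the tumour lungs, against 94.4, 58.2, 54.6, 96.5 and 81.4 in tumour-free lungs (-1.496 ± 0.425, adjusted p = 0.0082), and tumour lung 1 overlapped with the tumour-free lungs. Gzma, a granzyme of cytotoxic cells, fell by 3.36 to 35.9 ± 33.6 in tumour lungs, against 280.1 ± 77.3 in tumour-free lungs. Of 13 genes of conventional dendritic cells 10 fell and 1 rose (median -1.90). Clec9a, of type 1 dendritic cells, fell by 1.14 and Xcr1 by 1.90. Fscn1, the actin-bundling protein fascin, was the 1 that rose, at 2894, 4255, 4793, 5962 and 5561 in the tumour lungs, against 519, 275, 361, 491 and 444 in tumour-free lungs (3.48 ± 0.221, adjusted p = 7.4e-07), and it is not specific to dendritic cells, since many carcinoma cells express it.

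Smaller lists of blood and pleural cells were mostly lower. Of 6 erythroid genes 5 fell (median -0.92), with Hbb-bs at 32043 ± 11735 in tumour lungs, against 46784 ± 8942 in tumour-free lungs (adjusted p = 0.048, lost under 13 alternatives with p up to 0.32) and Alas2, the haem synthesis enzyme of red cell precursors, at -1.12. Of 5 plasma cell genes 3 fell, led by Igha (-1.91), the IgA heavy chain, and all 5 were lower without tumour lung 1. Of 5 plasmacytoid dendritic genes 3 fell, with Siglech at -2.24. Of 9 genes of the mesothelium, the lining of the pleura, 6 fell and 1 rose (median -1.88). Upk1b, a uroplakin gene, fell by 2.72, while Bnc1, the factor basonuclin, rose by 2.96. S100b of Schwann cells fell by 1.66, the only 1 of 4 in its list to pass; without tumour lung 1 or without tumour lung 4, 3 were lower.

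Antigen presentation genes fell with the immune lists. All 10 class II genes were lower (median -1.70), and Ciita, their transactivator, measured 472, 146, 69.1, 180.2 and 42.4 in tumour lungs 1 to 5, against 579.8, 509, 553, 604 and 592 in tumour-free lungs 1 to 5 (-2.12 ± 0.517, adjusted p = 0.0037). Of 12 class I and antigen processing genes 8 fell and 1 rose (median -0.54). H2-K1, a classical class I heavy chain, measured 15949, 7087, 5610.1, 7494 and 3396 in the tumour lungs, against 17404, 16607, 16727, 19802 and 16939 in tumour-free lungs (-1.33 ± 0.323, adjusted p = 0.0035). Interferon-gamma response genes fell in 7 and rose in 3 of 14 cases (median -0.86), and 10 were lower without tumour lung 1. Gbp4, a guanylate-binding protein gene, fell by 2.39, but Cxcl10, a chemokine of the same response, rose by 2.72 with 400.0, 233, 103, 357 and 149 in the tumour lungs, against 29.9, 33.9, 18.2, 50.7 and 38.7 in tumour-free lungs. Of 22 type I interferon genes 7 fell and 3 rose (median -0.22; background 32.8% higher, 37.7% lower), so neither direction was above its background share. Without tumour lung 1 these counts were 8 lower and 1 higher, and leaving out other single libraries gave 0 to 6 higher. Among 12 tested checkpoint genes 8 fell and 2 rose (median -1.0), and Cd276, the B7-H3 ligand gene, rose to 652 ± 128 in tumour lungs, against 137 ± 12.04 in tumour-free lungs (2.22, adjusted p = 9.2e-07).

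Chemokine genes moved in both directions, 13 of 29 higher and 11 lower (median 1.01; background 32.8% higher, 37.7% lower). Those that rose included ligands of monocytes and neutrophils. Ccl12, a ligand of Ccr2 in mice, measured 69.95, 185, 82.5, 165 and 129 in tumour lungs 1 to 5, against 14.4, 10.7, 1.92, 12.7 and 6.11 in tumour-free lungs 1 to 5 (3.77 ± 0.471, adjusted p = 4.7e-05). Cxcl1, a ligand of the neutrophil receptor Cxcr2, measured 135, 231, 454, 161 and 571 in the tumour lungs, against 8.67, 9.70, 22.02, 26.3 and 15.3 in tumour-free lungs (4.05 ± 0.449, adjusted p = 2.2e-05). Those that fell included homeostatic chemokines: Cxcl12 measured 1503, 442, 341, 736 and 216 in the tumour lungs, against 4081, 3666, 4167, 4273 and 3773 in tumour-free lungs (-2.95 ± 0.419), and Ccl21a, of lymphatic vessels, fell by 2.89. Pf4, platelet factor 4, rose by 2.23 although 5 of 6 platelet genes fell, the others having a log2 difference of -1.17 to -1.60; macrophages also express it. Among interleukins and colony-stimulating factors 6 rose and 6 fell of 17 tested (median 0.21), with Il11, a cytokine of fibroblasts and tumour cells, at 52.9, 54.7, 31.5, 140.4 and 43.4 in the tumour lungs, against 8.67, 7.76, 10.5, 10.7 and 8.14 in tumour-free lungs (2.50 ± 0.362).

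Division genes rose without exception. All 20 mitosis genes were higher, each of them by more than 2-fold in limma's treat test (median 3.67; background 8.52%), and all 20 DNA replication genes rose (median 2.03). Cdk1, the kinase that drives entry into mitosis, measured 508, 1238, 1038, 1023 and 1286 in tumour lungs 1 to 5, against 51.04, 26.2, 36.4, 60.4 and 54.97 in tumour-free lungs 1 to 5 (4.43 ± 0.291, adjusted p = 8.4e-07). Ccnb1, its cyclin partner, rose by 4.36, and Rrm2, the ribonucleotide reductase subunit of S phase, by 3.12. For each of these 3 the lowest tumour lung was tumour lung 1, and it was still above every tumour-free lung. Many promoters of this class carry a CCAAT box and a cell cycle homology region, at which the DREAM complex represses genes outside division. The promoters of 4 members are shown, the first in the list whose window held TTTGAA or TTCGAA on either strand. Their match was thus a condition of choice and not a result. They are from RefSeq's annotation on GRCm38.p6, each from 90 bases before the start to 50 after it on the gene's strand. TTTGAA and CCAAT (or its reverse complement ATTGG) are in capitals.
Plk1: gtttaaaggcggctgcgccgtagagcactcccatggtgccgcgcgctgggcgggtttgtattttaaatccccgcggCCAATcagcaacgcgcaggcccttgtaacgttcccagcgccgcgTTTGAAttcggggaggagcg
Ccnb2: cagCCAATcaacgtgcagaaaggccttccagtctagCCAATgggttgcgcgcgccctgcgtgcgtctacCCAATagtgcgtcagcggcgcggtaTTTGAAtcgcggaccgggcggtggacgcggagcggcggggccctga
Cdc20: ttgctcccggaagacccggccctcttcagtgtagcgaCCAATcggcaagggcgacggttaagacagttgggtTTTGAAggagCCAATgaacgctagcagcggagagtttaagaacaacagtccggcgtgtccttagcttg
Cdk1: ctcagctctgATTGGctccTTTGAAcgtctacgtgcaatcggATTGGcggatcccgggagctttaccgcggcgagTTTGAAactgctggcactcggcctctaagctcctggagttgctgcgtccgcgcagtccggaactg
These lie at chr7:122159345-122159484 (plus strand), chr9:70421505-70421644 (minus strand), chr4:118437294-118437433 (minus strand) and chr10:69352863-69353002 (minus strand). Windows from 250 bases before to 50 after the start were available for 18 of the 20 mitosis genes, taking the first window listed per gene. TTTGAA or TTCGAA, on either strand, stood in 15 of these 18 windows, against 19.2% of all 32851 windows, and CCAAT on either strand in 17 of 18, against 37.4% of all. A match describes the letters only, and no binding was measured.

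Brakes on division were mixed, with 8 of 17 inhibitors and p53 targets higher and 7 lower (median 0.24; background 32.8% higher, 37.7% lower). Cdkn1a, the p21 inhibitor, measured 2209, 2217, 1959, 2691 and 1531 in tumour lungs 1 to 5, against 935, 1163, 1117, 836 and 694 in tumour-free lungs 1 to 5 (1.16 ± 0.174, adjusted p = 0.00015). The p53 targets Eda2r (2.54), a receptor gene, Zmat3 (1.87) and Bax (1.84), which opens the mitochondrial membrane in apoptosis, also rose. Cdkn2b, the p15 inhibitor, fell by 2.85, and Cdkn1c, the p57 inhibitor, fell by 2.36. For DNA and histone methylation 8 of 17 rose and 4 fell (median 0.33), with the replication-coupled factors Hells (3.73) and Uhrf1 (3.59) highest.

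Growth and biosynthesis genes were higher. Myc, a transcription factor that drives growth, measured 3388, 5089, 4687, 5766 and 8341 in tumour lungs 1 to 5, against 121, 141, 165, 171 and 159.8 in tumour-free lungs 1 to 5 (5.11 ± 0.205, adjusted p = 8.4e-08), with no overlap. Its relatives moved the other way: Mycl fell by 2.56 and Mycn fell by 2.06. Of the 17 genes in the ribosome biogenesis and Myc list 14 rose and 3 fell (median 1.78). Srm, spermidine synthase, rose by 2.75 and Nop56, of the small nucleolar particles, by 2.74. Of 12 serine and one-carbon genes 10 rose and 2 fell (median 2.24). Phgdh, the first enzyme of serine synthesis, measured 873, 2007, 1874, 1394 and 1658 in the tumour lungs, against 126, 119, 116, 159 and 133 in tumour-free lungs (3.52 ± 0.207, adjusted p = 5.3e-07), and Psat1, the next enzyme, rose by 3.21. Aldh1l1, which oxidises formyl-tetrahydrofolate, fell by 2.79.

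Glycolysis genes rose in 12 of 14 cases with none lower (median 1.96). Eno1, enolase, measured 5089, 8372, 9782, 8652 and 10729.5 in tumour lungs 1 to 5, against 1434, 1285, 1274, 1463 and 1366 in tumour-free lungs 1 to 5 (2.60 ± 0.176, adjusted p = 1.0e-06), and Gapdh rose by 2.58. In the amino acid stress list 9 of 14 rose and 2 fell (median 0.59), with the transporter gene Slc7a5 at 3.01. The unfolded protein list had 9 of 13 higher and 2 lower (median 0.49), and the heat shock list 8 of 15 higher and 2 lower (median 0.63). The mitochondrial chaperonin pair Hspe1 (2.74) and Hspd1 (1.99) rose most of the heat shock genes. The antioxidant list was even, with 5 of 13 in each direction (median 0.07), not far from the shares of all tested genes (32.8% higher, 37.7% lower). Cholesterol synthesis genes did not rise: 9 of 14 fell (median -0.40), with Insig1, a sterol sensor, at 576 ± 157 in tumour lungs, against 1566 ± 146 in tumour-free lungs (-1.48, adjusted p = 4.0e-05).

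Hypoxia response genes were less uniform than glycolysis genes, with 8 of 16 higher and 3 lower (median 0.58), and 5 higher without tumour lung 3 or without tumour lung 5. Egln3, an oxygen-sensing prolyl hydroxylase gene that hypoxia-inducible factors activate, measured 784, 1305, 1298, 1041 and 2088 in tumour lungs 1 to 5, against 35.6, 32.97, 44.05, 36.1 and 54.97 in tumour-free lungs 1 to 5 (4.91 ± 0.242, adjusted p = 2.3e-07). Car9, a carbonic anhydrase and classical target, measured 28.7, 42.6, 75.2, 24.1 and 128 in the tumour lungs, against 16.4, 15.5, 5.75, 12.7 and 9.16 in tumour-free lungs (2.04 ± 0.467, adjusted p = 0.0023). Ankrd37 measured 58.3, 190.2, 200.1, 53.4 and 218 in the tumour lungs, against 47.2, 64.1, 71.8, 50.7 and 46.8 in tumour-free lungs (adjusted p = 0.032), and leaving out any of 6 single libraries lost its call. Car9 and Ankrd37 shared an order, with tumour lungs 2, 3 and 5 high and tumour lungs 1 and 4 low. Egln1, a related hydroxylase gene, overlapped at 1156 to 1779 in tumour lungs, against 1149 to 1438 in tumour-free lungs (adjusted p = 0.86). Epas1, which encodes the factor HIF-2 alpha and is high in lung endothelium, measured 16995, 2627, 1661, 4827 and 837 in the tumour lungs, against 34144, 43658, 46798, 34294 and 37037 in tumour-free lungs (-3.63 ± 0.643, adjusted p = 0.00049). Hypoxia-inducible factors bind sites with the core ACGTG. The stretch around it is shown for 4 genes, the first in the list whose window held it, so their match was a condition of choice. The stretches are on the gene's strand (RefSeq, GRCm38.p6), with ACGTG or its reverse complement CACGT in capitals.
Car9: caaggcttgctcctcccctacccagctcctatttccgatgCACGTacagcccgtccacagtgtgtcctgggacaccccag
Egln1: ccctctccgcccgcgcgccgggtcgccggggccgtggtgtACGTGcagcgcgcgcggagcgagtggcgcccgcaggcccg
Egln3: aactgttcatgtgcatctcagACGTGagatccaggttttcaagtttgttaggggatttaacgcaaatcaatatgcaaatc
Ankrd37: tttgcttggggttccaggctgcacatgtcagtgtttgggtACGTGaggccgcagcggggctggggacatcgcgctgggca
These lie at chr4:43506968-43507047 (plus strand), chr8:124949283-124949362, chr12:54204045-54204124 and chr8:45999817-45999896 (minus strand for these 3). ACGTG, on either strand, stood in 10 of 15 hypoxia gene windows with an entry and in 19.6% of all windows. Of the 4 genes shown, Car9, Egln3 and Ankrd37 rose and Egln1 did not pass the test.

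**Figure D3:**
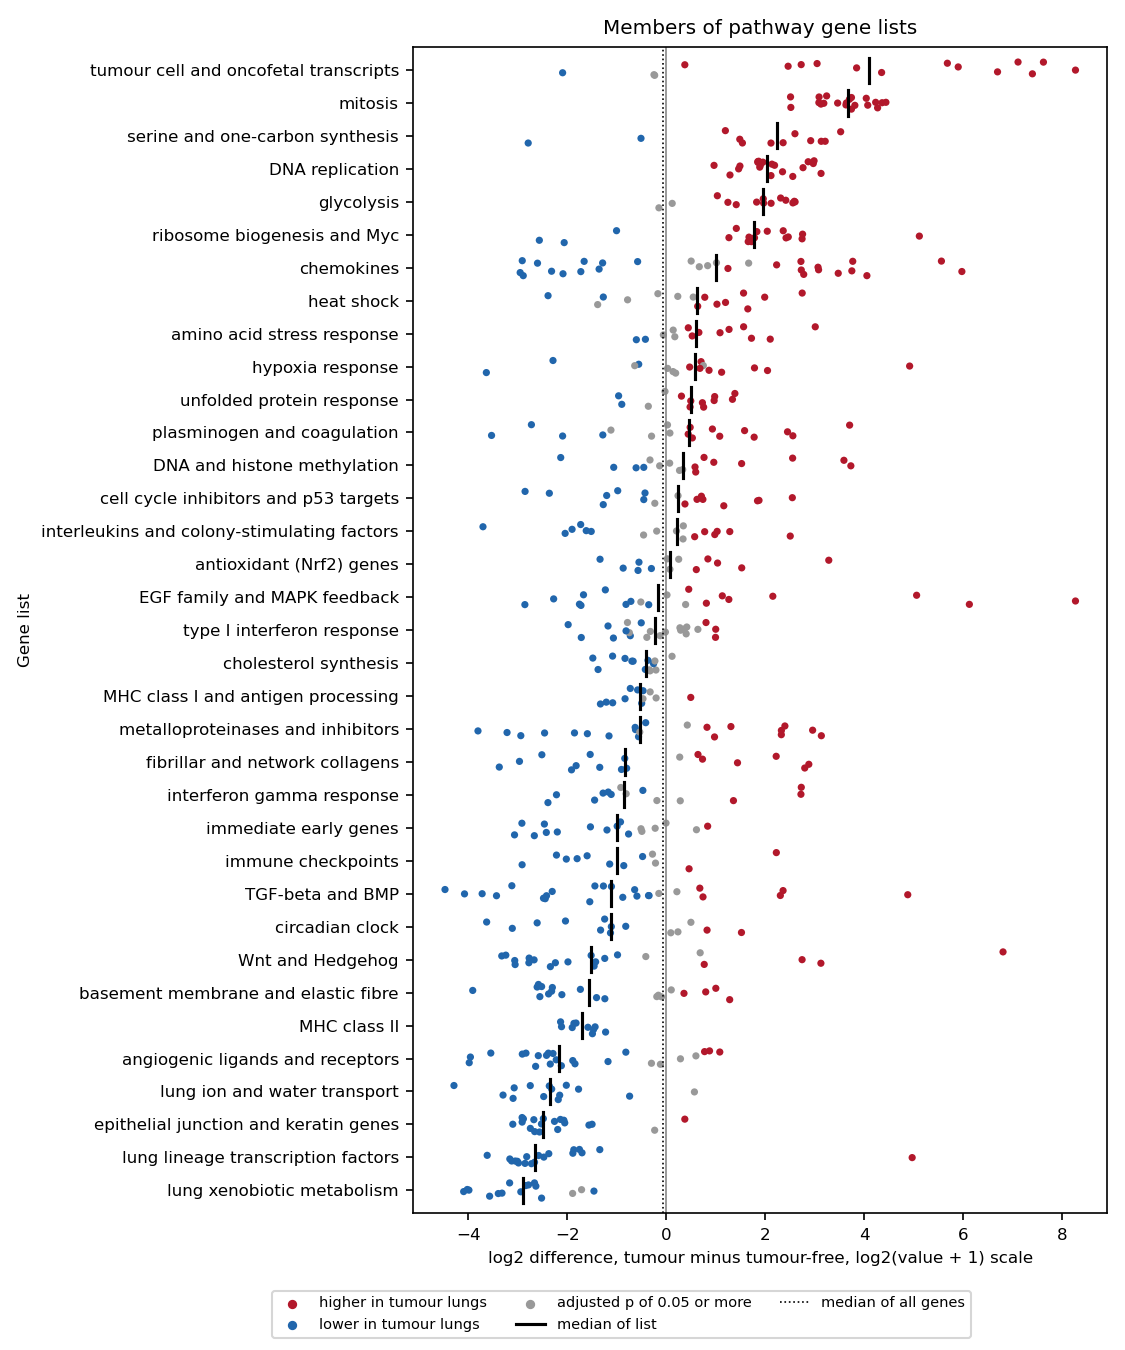
Log2 difference of tumour minus tumour-free lungs (horizontal axis) for each tested member of the pathway lists (rows, ordered by median); red points rose, blue points fell and grey points had an adjusted p of 0.05 or more, the short black line is the list's median and the dotted line the median of all genes. Mitosis, DNA replication and glycolysis have no blue point, MHC class II has only blue points, and chemokines, collagens and TGF-beta genes spread to both sides.

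Growth factor signalling genes moved in both directions. In the EGF family and MAPK feedback list 8 of 20 rose and 9 fell (median -0.17), not far from the shares of all tested genes (32.8% higher, 37.7% lower). Ereg, the ligand epiregulin, measured 152, 152, 105, 229 and 186 in tumour lungs 1 to 5, against 1.93, 3.88, 4.79, 2.92 and 7.13 in tumour-free lungs 1 to 5 (5.05 ± 0.319, adjusted p = 7.1e-07), and Areg, amphiregulin, rose by 2.15. Etv4, an ETS factor induced by MAPK signalling, measured 293, 639.5, 916, 692 and 776 in the tumour lungs, against 7.70, 7.76, 6.70, 12.7 and 6.11 in tumour-free lungs (6.12 ± 0.309, adjusted p = 2.5e-07), while the receptor gene Erbb3 fell by 2.86. Of 25 TGF-beta and BMP genes 18 fell and 5 rose (median -1.11). Besides Bmp6, the receptor Acvrl1 fell by 3.43 and the inhibitory SMAD gene Smad6 fell by 3.72, both known from vessels, whereas Inhba, the activin A subunit, rose by 2.36. Of 21 Wnt and Hedgehog genes 15 fell and 4 rose (median -1.52). Wnt2, a ligand of lung mesenchyme, fell by 3.32, but Wnt7b, a ligand of lung epithelium, rose and measured 617, 1062, 711, 949 and 658 in the tumour lungs, against 105, 76.6, 67.99, 95.5 and 106 in tumour-free lungs (3.12 ± 0.188, adjusted p = 6.0e-07).

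Immediate early and clock genes were lower as lists. Of 17 immediate early genes 11 fell and 1 rose (median -0.99), led by Btg2 (-3.06), an anti-proliferative gene, and the phosphatase gene Dusp1 (-2.92). Of 14 clock genes 9 fell and 2 rose (median -1.12). Npas2, a partner of Bmal1, fell by 3.63 and the repressor gene Nr1d1 fell by 3.11, whereas Cry1 rose by 1.52. The hour of collection was not given, so its part in these values was not tested.

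The 5 tumour lungs differed in how much lung transcript they kept. Of the 6391 genes that fell, tumour lung 1 was the highest tumour lung for 74.2%, against 4.44% to 7.57% for each of the others; of the 5571 that rose it was the lowest for 74.7%. In the 8 lists of 5 or more tested members in which all members fell, tumour lung 1 had the highest mean of the tumour lungs in all 8 and tumour lung 5 the lowest in all 8. On the first principal component, which held 82.9% of the variance, the tumour lungs ran from -1.91 in lung 1 through -81.8 in lung 4 and -116 in lung 2 to -137 in lung 3 and -166 in lung 5, while the tumour-free lungs lay between 92.8 and 107. In the same order, Luc2 measured 55.6, 69.2, 49.2, 42.45 and 39.3 in tumour lungs 1, 4, 2, 3 and 5. Except between tumour lungs 1 and 4, the reporter was thus lower in the lungs further from the tumour-free lungs. The cause of this was not tested.

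Tumour lungs 1 and 4 also held transcripts of tissues other than lung parenchyma. Acta1, the skeletal muscle actin gene, measured 16329, 19.9, 27.2, 4114 and 204 in tumour lungs 1 to 5, against 7.70, 3.94, 7.81, 3.90 and 32.6 in tumour-free lungs 1 to 5. The 6 skeletal muscle genes of the list, 4 of them tested, summed to 31323 in tumour lung 1 and 8699 in tumour lung 4, to between 69.1 and 469.0 in the other 3, and to between 180.4 and 298.1 in the tumour-free lungs. Krt5, the basal keratin gene, measured 2611, 12.03, 0, 516 and 14.1 in the tumour lungs, against 4.82, 0.970, 5.75, 2.92 and 14.3 in tumour-free lungs. Markers of cardiac muscle, which in mice lines the pulmonary veins, summed to 8562 and 7709 in tumour lungs 1 and 4, to between 163 and 473 in the other 3, and to between 8326 and 11218 in the tumour-free lungs. Adipocyte markers summed to 2373 and 2318 in tumour lungs 1 and 4, to between 171 and 232 in the other 3, and to between 905 and 1397 in the tumour-free lungs. Without both lungs, 6108 of 17548 tested genes differed by over 2-fold, against 3777 of 16967 with all 10 libraries. The part of these tissues in other differences was not tested.

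Without tumour lung 1 alone, 5550 of 17273 tested genes differed by over 2-fold. For mitosis, DNA replication, glycolysis, alveolar type 1, alveolar type 2, ciliated, general endothelial, capillary, lymphatic and tumour-associated macrophage genes, the numbers higher and lower were the same with all 10 libraries, without tumour lung 1, and without lungs 1 and 4. The counts that leaving out tumour lung 1 moved by over 1.5 times follow, with all 10 libraries, without tumour lung 1, and without lungs 1 and 4. Of 5 adipocyte genes 0, 4 and 5 were lower, of 4 Schwann cell genes 1, 3 and 4, and of 5 plasma cell genes 3, 5 and 5. Of 22 type I interferon genes 3, 1 and 0 were higher, and 7, 8 and 11 were lower. In the alveolar fibroblast, basal airway, immediate early, plasmacytoid dendritic and oncofetal lists a count of 0 or 1 moved by 1 without tumour lung 1. Smaller relative movements included class I genes, with 8, 11 and 11 of 12 lower, and interferon-gamma genes, with 7, 10 and 10 of 14 lower.

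**Figure D4:**
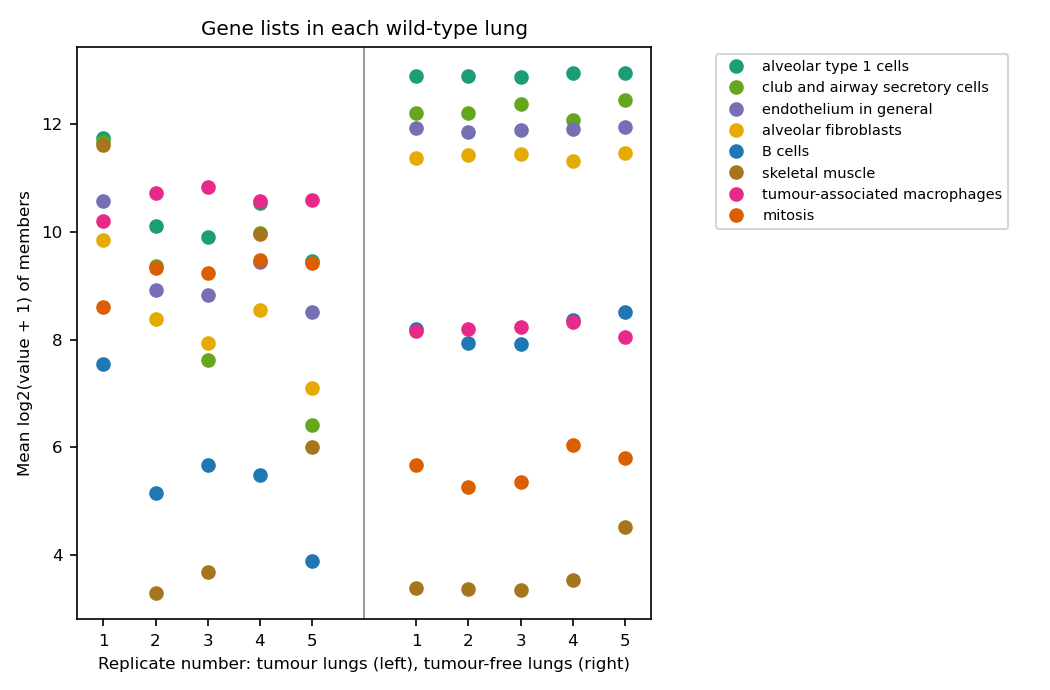
Mean log2(value + 1) of the members of 8 gene lists (vertical axis) in each tumour lung (left, replicates 1 to 5) and each tumour-free lung (right, replicates 1 to 5). Among the tumour lungs, the alveolar, airway, endothelial, fibroblast and B cell lists are highest in lung 1 and lowest in lung 5; skeletal muscle is highest in tumour lungs 1 and 4, then 5; and the mitosis and tumour-associated macrophage lists are higher in every tumour lung than in any tumour-free lung.

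The same cells were also instilled in C57BL6j mice with a mutant Timp2 gene (MT2), with 5 MT2 tumour lungs of mice given HBSS and 5 MT2 tumour-free lungs, which allowed a test of whether the tumour's difference depended on genotype. It did so for 4 of 17927 genes (0.0223%) by limma's interaction term at an adjusted p under 0.05, with 1776 genes at an unadjusted p under 0.05. By chance alone, a share of 0.05 of the tested genes would have an unadjusted p under 0.05. Timp2 itself did not pass, with an interaction, wild type minus MT2, of -1.12 ± 0.204 (adjusted p = 0.089). These 4 genes are named after their values were seen. Apln, the ligand apelin, did not pass the test in wild-type lungs, at 1027, 607, 956, 872 and 1019 in tumour lungs 1 to 5, against 1061, 1076, 927, 1078 and 1310.1 in tumour-free lungs 1 to 5 (-0.30 ± 0.151, adjusted p = 0.096), whereas MT2 lungs had 216, 157, 408, 242 and 277 with tumour, against 1126, 1114, 1417, 1048 and 1184 without (log2 difference -2.24, adjusted p = 5.0e-06). The interaction, wild type minus MT2, was 1.94 ± 0.275 (adjusted p = 0.0088). Serpinh1, the collagen chaperone, measured 9334, 10968, 8179.8, 10565 and 11467 in wild-type tumour lungs, against 4434, 4249, 4225, 4406 and 5095 in wild-type tumour-free lungs (1.17 ± 0.116, adjusted p = 1.1e-05), and 6572, 6786, 6032, 6195 and 6781 in MT2 tumour lungs, against 5601, 5661, 5711, 5614 and 6054 in MT2 tumour-free lungs (0.17, adjusted p = 0.15). Its interaction was 0.99 ± 0.142 (adjusted p = 0.0088), and MT2 tumour-free lungs lay above wild-type tumour-free lungs. Fam167a fell by 0.55 in wild-type lungs and fell by 2.14 in MT2 lungs (interaction 1.59, adjusted p = 0.023), and the endothelial protocadherin gene Pcdh12 fell by 3.04 in wild-type lungs and fell by 4.90 in MT2 lungs (interaction 1.85, adjusted p = 0.032). Larger falls in MT2 lungs were not confined to these genes. The endothelial gene Pecam1 had log2 differences of -2.86 in wild-type and -3.55 in MT2 lungs (interaction adjusted p = 0.69). Those of Cdh1 were -2.91 and -4.40 (interaction adjusted p = 0.5). Ezh1 went the other way, at -1.06 and -0.76 (interaction adjusted p = 0.61). Leaving out single libraries kept Apln and Serpinh1 past the threshold in all 20 cases, while Fam167a lost it in 9 and Pcdh12 in 13, with an adjusted p of up to 0.1 in these. The count of genes itself depended on single libraries: it was 55 without MT2 tumour lung 5, 49 without MT2 tumour lung 4, 21 without wild-type tumour lung 5 and 10 without wild-type tumour lung 3, and 2 without any of 9 others.

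**Figure D5:**
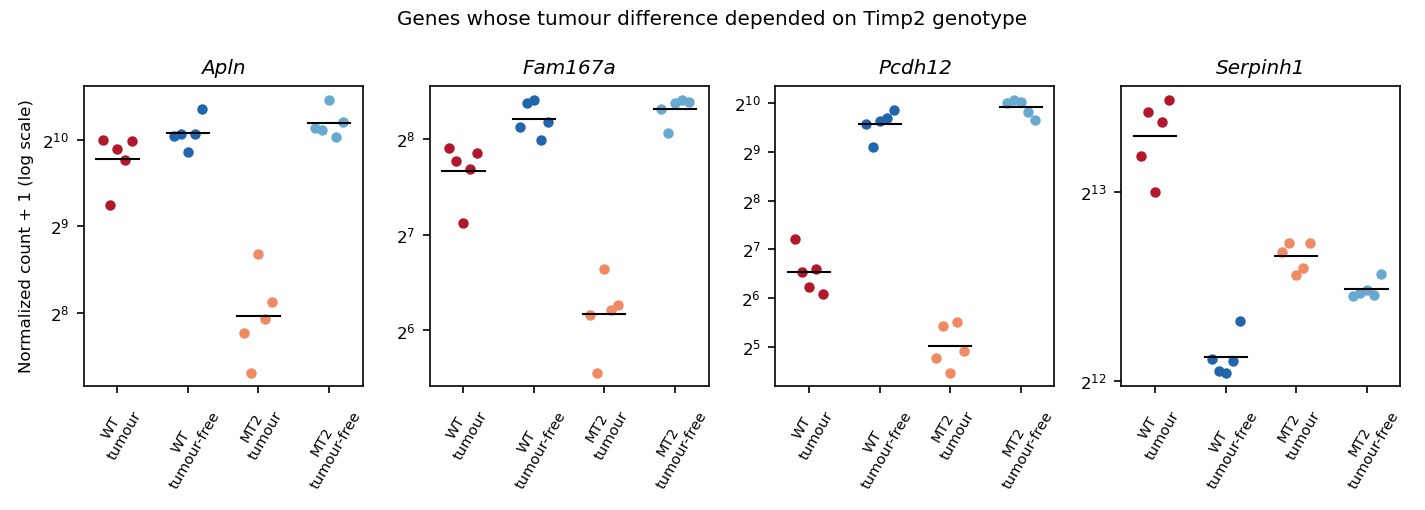
Normalized count + 1 (log scale) of the 4 genes whose tumour difference depended on genotype, in 5 libraries per group, with the mean on the log scale as a black line. Apln stays near its tumour-free level in wild-type tumour lungs and is lower in all 5 MT2 tumour lungs, and Serpinh1 is highest in wild-type tumour lungs.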

How the data were processed

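Polyadenylated RNA of lung pieces was sequenced, and per the submitters' processing notes STAR, Bowtie2, Partek, DESeq2 and the mouse build mm10 were used, with no role or version of each given in the sources used here. The authors deposited 1 table of the intratracheal model with 26940 genes as normalized counts, a non-negative signal per gene that is scaled by library and need not be whole; the strand setting of the counting was not given. Because these are not raw counts, no count model was used. Values were tested as log2(value + 1) with limma 3.58.1 (R 4.3.3; trend and robust), over genes at 10 or more in at least 5 samples, and limma's treat tested differences over 2-fold. The p-values of limma were adjusted by Benjamini-Hochberg except where called unadjusted, and the exact permutation p-values of Luc2 were not adjusted. The fits were tested on simulated data, with the outcome not reported here. Tables, exact permutation tests and figures used Python 3.11.15, pandas 2.3.3, scipy 1.17.1 and matplotlib 3.10.9.

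Named genes were the 15 largest rises and falls, the 10 highest means of each group, in each list the 4 members with the largest differences in the main direction and 2 in the other, the first 2 of each cell type list, and the promoters' 4 first matches. A few genes that the rule names are not reported here. Aars, Bpifa1, H19 and the 4 genes of the genotype test were named after their values were seen. The genes and lists were chosen with earlier results of these data known. The subcutaneous model was not used here. Alternatives were other pseudocounts, filters, scalings and fits, leaving out each library, and, added after seeing the data, leaving out tumour lungs 1 and 4. The filter asked for fewer samples in fits that left out libraries, so more genes were tested in them.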

Additional observations from a re-analysis of the deposited data

Results flagged for a closer look

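Of the 368 sets of 5 libraries examined (184 genes in both groups), 53 held a library whose gap to the nearest other library took up more of the group's range than Dixon's 95% value for 5 samples allows. For independent, normally distributed samples chance flags about 1 in 20. The values here were not log-transformed, and most of the genes were chosen for large differences. The 53 sets therefore cannot be set against that rate. Tumour lung 1 was that library for 36 genes, and no other library for more than 5. Among vessel genes tumour lung 1 lay above the other 4 tumour lungs: Acvrl1 measured 4189 (highest of the others 1482), Epas1 measured 16995 (highest of the others 4827), Smad6 measured 1819.7 (highest of the others 441) and Tek measured 1349 (highest of the others 349). In the same lung, Thbd measured 6831 (highest of the others 1950.1), Vegfa measured 5484 (highest of the others 2170.2) and Vwf measured 3229 (highest of the others 1507). Among alveolar and airway epithelial genes tumour lung 1 lay above the other 4 tumour lungs: Akap5 measured 1457 (highest of the others 534), Bpifa1 measured 7707 (highest of the others 2268), Cbr2 measured 27025 (highest of the others 6394) and Cyp2f2 measured 12121 (highest of the others 2587). In the same lung, Dnah5 measured 233 (highest of the others 48.2), Foxj1 measured 1366 (highest of the others 373), Scgb1a1 measured 146956 (highest of the others 35053) and Scgb3a2 measured 4374 (highest of the others 1064). In the same lung, Sox2 measured 216 (highest of the others 64.97). Among mesenchymal and smooth muscle genes tumour lung 1 lay above the other 4 tumour lungs: Cnn1 measured 748 (highest of the others 183), Itga8 measured 955 (highest of the others 250.2), Npnt measured 3517 (highest of the others 1183) and Tbx4 measured 405 (highest of the others 188). In the same lung, Tcf21 measured 564 (highest of the others 178). Among matrix, signalling and metabolic genes tumour lung 1 lay above the other 4 tumour lungs: Aox3 measured 578 (highest of the others 151), Bmp6 measured 1101 (highest of the others 234), Col4a3 measured 725 (highest of the others 313) and Col4a4 measured 538 (highest of the others 216). In the same lung, Fmo1 measured 1490.5 (highest of the others 387), Glp1r measured 467 (highest of the others 149.8) and Lrat measured 233 (highest of the others 49.2). Among immune, muscle, keratin and fetal genes tumour lung 1 lay above the other 4 tumour lungs: Acta1 measured 16329 (highest of the others 4114), Gbp4 measured 624 (highest of the others 138), H19 measured 5949.7 (highest of the others 2173) and Igha measured 644 (highest of the others 179.5). In the same lung, Krt5 measured 2611 (highest of the others 516) and Ms4a1 measured 187 (highest of the others 49.2). It lay below the other 4 for 2 genes: Inhba measured 131 (lowest of the others 189) and Rhox2g measured 149 (lowest of the others 387).

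The remaining single libraries were these. In tumour lung 2, Eda2r measured 355 (highest of the others 221), Psat1 measured 2488 (highest of the others 1601) and Serpinb2 measured 585 (highest of the others 120.5). In tumour lung 4, Il11 measured 140.4 (highest of the others 54.7). In tumour-free lung 1, Eef2 measured 29107 (lowest of the others 29687). In tumour-free lung 2, Cftr measured 179 (highest of the others 152). In tumour-free lung 3, Exosc6 measured 1.8e-05 (highest of the others 3.1e-07), Grem1 measured 18.2 (highest of the others 9.75) and Rhox2h measured 7.66 (highest of the others 2.92). In tumour-free lung 4, Ccr2 measured 739.9 (highest of the others 581), Clec4d measured 78 (highest of the others 41.4) and Etv4 measured 12.7 (highest of the others 7.76). In tumour-free lung 4 also, H2-K1 measured 19802 (highest of the others 17404) and Scgb3a2 measured 7258 (lowest of the others 8379). In tumour-free lung 5, Acta1 measured 32.6 (highest of the others 7.81), Rhox2g measured 1.02 (lowest of the others 1.92) and Serpinh1 measured 5095 (highest of the others 4434). The cause of these single values was not tested.

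The tumour's difference depended on genotype for 4 genes by limma's interaction term: the difference in wild-type lungs minus that in MT2 lungs was 1.94 for Apln, 1.59 for Fam167a, 1.85 for Pcdh12 and 0.99 for Serpinh1 on the log2 scale. For Apln, Fam167a and Pcdh12 the fall was larger in MT2 lungs, and for Serpinh1 the rise was larger in wild-type lungs. Other genes, such as Pecam1 and Cdh1, also had a larger fall in MT2 lungs but did not pass this test.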

How the results depend on the processing

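The counts of genes changed at all, of higher genes and of lower genes stayed within 1.5 times under every alternative run. Leaving out 1 library at a time gave 11395 to 13018 changed genes, 5249 to 6140 higher and 6036 to 6878 lower, and 2996 to 5550 genes over 2-fold (1210 to 2133 higher, 1786 to 3417 lower). Leaving out tumour lungs 1 and 4, chosen after seeing the data, gave 6108 genes over 2-fold, 2311 higher and 3797 lower, and 1 fit over all 6 intratracheal groups gave 912 higher over 2-fold. Between 45.6% and 52.3% of called genes were higher under the alternatives. Which direction held more genes depended on the scaling. With values scaled as deposited, more called genes were lower than higher. Rescaling to the same total gave 6132 higher and 5914 lower, and quantile normalization gave 6248 higher and 5709 lower. The genes whose tumour difference depended on genotype numbered 2 to 55 when 1 library was left out (2 to 43 higher and 0 to 23 lower in wild type than MT2). The log2 difference of Timp2 was -0.675 to -0.566 and the difference in Luc2 was 46.64 to 54.1 normalized counts when 1 library was left out; 4 against 5 libraries allow no exact p under 0.016 for Luc2. The cause of these movements was not tested.

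Replicate numbers recur in all groups, but do not pair the samples: deviations of same-numbered tumour and tumour-free lungs had correlations of -0.171 to 0.006, and no number correlated best with itself. With the replicate number as a block, 2 genes depended on genotype (2 higher), and the other counts stayed within 1.5 times.

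Of the 186 results for single genes, 172 kept their direction and their side of the threshold under every alternative run. Those that lost a call under 1 or more were Alas2, Ankrd37, Fam167a (also its genotype difference), Hbb-bs, Hspg2, Krt18, mt-Co1, mt-Cytb and the genotype difference of Pcdh12; those that gained one were Bpifa1, Bst1, Krt5 and Vegfd. None reversed where a call was made.

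Estimated depth was somewhat lower in the tumour lungs (median 11.78 M) than in the tumour-free lungs (median 13.69 M). It limits mainly genes at a few reads in either group. The scaling was the authors', and the share of tumour cells in each piece was not measured. Cohort, sex of the mice, instillation and vehicle cannot be told apart from tumour.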
